A study of Homo sapiens with 12 samples.

Results

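The genes described here are 9 regulators of blood stem and progenitor cells, MYB, GATA2, RUNX1, LYL1, ERG, IKZF1, HHEX, MEIS1 and KIT, taken by name from the 27348 genes of the expression table. All 9 were found in the table and placed on the genome. Of these, 8 encode transcription factors and 1, KIT, encodes a cell surface receptor, so the set is not made of transcription factors alone. The cells were K562, an established line of chronic myeloid leukemia that carries the BCR-ABL fusion and can be driven towards red cells or megakaryocytes. They were infected with lentivirus carrying an empty vector (shCT) or a short hairpin RNA against the long isoform of PHF19 (sh#1 or sh#2) and selected with puromycin, so each condition was a population of infected cells of 1 line. RNA-seq comprised 6 libraries, 2 for each of shCT, sh#1 and sh#2, of which the table gives the authors' mean over all. ChIP-seq comprised 6 libraries, 1 for each condition, with fly chromatin and an antibody to fly H2Av in each reaction. The peak lists of 3 of these were used here, 1 for PHF19 (shCT) and 2 for MTF2 (shCT and sh#2).

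PHF19 and MTF2 are homologs of the fly protein Polycomb-like and accessory subunits of PRC2, the complex that trimethylates lysine 27 of histone H3 at silent genes. Polycomb-like proteins bind DNA that is rich in unmethylated CG dinucleotides, and PRC2 is best known at the CpG-rich promoters of genes that a cell does not transcribe. GATA2, RUNX1, LYL1 and ERG belong, with TAL1, LMO2 and FLI1, to a group of factors that bind enhancers together in blood progenitors, and MYB, IKZF1, HHEX, MEIS1 and KIT also act in immature blood cells.

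The question put to the lists was whether these genes lie under PHF19 or MTF2 peaks, and whether the MTF2 peaks differ after PHF19 depletion. At 3 of the 9 genes a peak of any list lay between 2.5 kb upstream of a transcript start and the transcript end. These were KIT, ERG and RUNX1. Of all placed genes, 10.2% had such a peak for PHF19, 13.5% for MTF2 in shCT and 18.1% for MTF2 in sh#2 cells. KIT had an MTF2 peak over its start in shCT and in sh#2 cells. ERG, which was nearly silent, had 8 MTF2 peaks in shCT and 7 in sh#2 cells. RUNX1 had the single PHF19 peak of the set, in an intron. No peak lay in the regions of MYB, GATA2, LYL1, IKZF1 and HHEX, the 5 genes of the set with the highest RNA levels, and at MEIS1 peaks flanked the gene on either side.

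The sequences before the starts of KIT, MYB, HHEX and ERG are shown because the first 3 are rich in CG and only the first of them lay under a peak, while ERG is poor in CG here and had MTF2 peaks elsewhere in its region. Each run covers bases 250 to 71 before the start of the MANE transcript, the reference transcript of the gene, on GRCh37 and in the direction of transcription, with every CG in capitals. They lie at chr4:55523874-55524053 (plus strand) for KIT, chr6:135502196-135502375 (plus strand) for MYB, chr10:94449462-94449641 (plus strand) for HHEX and chr21:39870472-39870651 (minus strand) for ERG.
KIT: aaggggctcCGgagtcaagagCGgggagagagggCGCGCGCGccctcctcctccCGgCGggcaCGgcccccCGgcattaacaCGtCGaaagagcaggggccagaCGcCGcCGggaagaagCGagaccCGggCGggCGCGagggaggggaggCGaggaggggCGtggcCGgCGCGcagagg
MYB: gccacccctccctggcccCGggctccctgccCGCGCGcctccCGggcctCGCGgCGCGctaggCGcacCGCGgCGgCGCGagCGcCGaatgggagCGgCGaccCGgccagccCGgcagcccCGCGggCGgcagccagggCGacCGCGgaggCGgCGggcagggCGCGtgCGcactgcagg
HHEX: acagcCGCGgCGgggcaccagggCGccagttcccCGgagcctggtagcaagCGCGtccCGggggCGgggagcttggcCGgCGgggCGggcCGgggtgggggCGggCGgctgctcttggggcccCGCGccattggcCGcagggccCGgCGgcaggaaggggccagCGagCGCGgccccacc
ERG: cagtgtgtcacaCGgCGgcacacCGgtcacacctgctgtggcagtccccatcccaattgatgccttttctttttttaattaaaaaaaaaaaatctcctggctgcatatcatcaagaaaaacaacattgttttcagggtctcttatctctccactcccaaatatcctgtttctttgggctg

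Over the whole 250 bases before the start, KIT and MYB held 34 CG each, more than 89.8% of the 18614 windows of genes with a MANE transcript. HHEX held 38 CG, and ERG held 3. The median window held 19. The trinucleotide GCG, read on either strand and overlapping CG by definition, occurred in 91.8% of all windows and 39 times in MYB, 39 in HHEX, 33 in KIT and 1 in ERG. A window was taken as CpG-rich with at least 55% G and C and a ratio of observed to expected CG of at least 0.6, which held for 60.3% of all windows. It held for 6 of the 9 genes, namely MYB, IKZF1, GATA2, KIT, MEIS1 and HHEX. Of these 6, KIT had a promoter peak, within 2.5 kb of a transcript start, in both MTF2 lists, and the others had none in any list. Over all 11215 CpG-rich windows, 13.4% of the genes had a promoter peak for MTF2 in shCT and 17.9% in sh#2 cells. For PHF19 the share was 11.05%. A CpG-rich promoter without a peak was thus the common case, and its absence at the others is not read as particular to them. ERG and RUNX1 were not CpG-rich at the MANE start, and none of their peaks covered that start. The promoter peak of RUNX1 and that of ERG in sh#2 cells lay at other, distant starts.

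HHEX, a homeobox factor needed for early blood progenitors, had the highest level of the set, with a mean normalized count of 1589 per kb of exons. MYB, which sustains the proliferation of immature blood cells, stood at 932 on the same scale. LYL1, a basic helix-loop-helix factor, and GATA2, a zinc finger factor of stem cells, followed at 809 and 787. IKZF1, the zinc finger factor Ikaros of lymphoid and early progenitors, stood at 260.3 per kb. These 5 lay above the median of the 13855 placed genes whose mean normalized count reached 10, which was 147.8 per kb.

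RUNX1, the runt domain factor that sets up definitive blood formation, stood at 58.5 per kb of exons. MEIS1, a homeobox partner of HOX proteins, stood at 27.02, and KIT, the receptor of stem cell factor, at 13.4. ERG, an ETS factor of stem cells, stood at 0.152 per kb, from a mean normalized count of 1.15. ERG thus lay far below the other 8, whose mean normalized counts were 151 or more. Each value is the authors' mean over all libraries, shCT and shRNAs together, with no error that could be given, so neighbours in this order were not told apart by a test and no expression change between conditions is described.

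**Figure D1:**
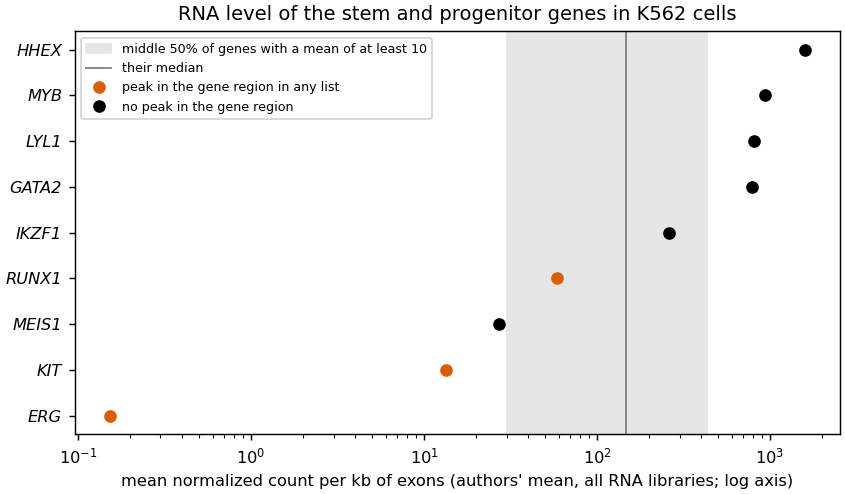
RNA level of the 9 genes as the authors' mean normalized count over all RNA libraries, divided by the kb of annotated exons (log axis); grey shading marks the middle 50% and the line the median (147.8) of the genes whose mean reached 10. The genes with a peak in their region (orange) are RUNX1, KIT and ERG, at 58.5, 13.4 and 0.152. Of the 6 genes without one, 5 lie at 260.3 or more and MEIS1 lies at 27.02, below RUNX1.

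The line was checked against markers listed for it. All 8 K562 markers, among them the fetal globins HBG1 and HBG2, which are near-identical copies, GATA1 and TFRC, stood at 4463 or higher as mean normalized counts. Of the stem cell markers, CD34 stood at 0.162 and PROM1 at 0. The T cell list had 3 of 4 genes at 10 or more, led by CD3D at 961.7, and its part in the levels of the set was not tested. B cell, monocyte and granulocyte, and fibroblast lists had 1 gene each at 10 or more, and none above 76.8. PHF19, the depleted gene, had a mean of 7798 over all libraries, a value that holds depleted and control cells together and so does not check the depletion.

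For PHF19 in shCT cells, 1 of the 9 genes had a peak in its region, against 10.2% of the 23972 genes placed. For MTF2, 3 of 9 had one in shCT cells, against 13.5% of all genes, and 3 of 9 in sh#2 cells, against 18.1%. RUNX1 was counted for MTF2 only through transcripts without a consensus coding sequence, and so was its promoter peak in sh#2 cells. With the longest transcript of each gene, both MTF2 counts were 2 of 9, and the share of all genes is not given at that setting. Within 2.5 kb of a transcript start the counts were 0 of 9 for PHF19 (7.88% of all genes), 2 of 9 for MTF2 in shCT cells (11.1%) and 3 of 9 for MTF2 in sh#2 cells (15.6%). With 1 library for each condition and 9 genes chosen by name, no test was made.

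Longer regions held peaks more often, and the set has long genes. Of all genes with a region of at least 100 kb, 17.9% had a PHF19 peak, 24.4% an MTF2 peak in shCT and 30.2% one in sh#2 cells. The set has 4 such genes, IKZF1, RUNX1, MEIS1 and ERG, of which 1, 2 and 2 had a peak in those lists. Under 20 kb lie GATA2, LYL1 and HHEX, a class in which 5.66%, 8.83% and 12.8% of all genes had a peak.

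MTF2 lay over the start of KIT. In shCT cells the peak ran from 55523554 to 55526137 on GRCh37 chromosome 4, 2584 bp wide, and in sh#2 cells from 55522989 to 55525973, 2985 bp wide. They overlapped by 2420 bp and covered 15 and 16 of the 24 annotated transcript starts, the MANE start at 55524124 included. Of the MTF2 peaks within the regions of the set, the KIT peak was the strongest in shCT cells, with a score of 170.5, above 78.7% of its list, and the second strongest in sh#2 cells, with 192.1, above 70.2%. Scores come from separate runs of the caller and were compared only within a list. CG were dense under both, at 75.5 and 70.7 per kb, against medians of 22.4 and 20.1 over the peaks of the 2 lists. No PHF19 peak lay nearer than 1390.3 kb to the KIT start.

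ERG held most of the MTF2 peaks of the set, 8 of 10 in shCT and 7 of 13 in sh#2 cells, spread over 284 kb. In shCT cells they covered 13454 bp, or 4.73% of the region, and in sh#2 cells 17497 bp, or 6.16%. Their centres ran from 116.6 kb downstream of the MANE start, over exons towards the 3′ end, through the intron after the start to 159.5 kb upstream, near the distal starts. Of the 8 shCT peaks, 7 overlapped an sh#2 peak, and 5 of the 7 sh#2 peaks overlapped an shCT peak. The same shares over the whole lists are not given here, so these counts are not read as particular to ERG. The ERG peaks without a counterpart lay near and downstream of the MANE start. An shCT peak of 1036 bp with a score of 56.5 (39869150 to 39870185 on chromosome 21) began 0.216 kb downstream of the MANE start and had no counterpart in sh#2 cells. A pair of sh#2 peaks, centred 8.83 and 13.9 kb downstream of that start, had none in shCT cells. The wider of these, 3524 bp from 39859805 to 39863328, had a score of 222, the highest at ERG, and lay above 74.2% of its list.

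Most ERG peaks were weak for their lists. In shCT cells the scores ran from 53.6 to 97.2, with 3 of 8 at or above the list's median of 86.6, and in sh#2 cells from 52.7 to 222, with 2 of 7 at or above the median of 112. Under the ERG peaks there were 10.7 to 24.1 CG per kb in shCT and 8.57 to 20.02 in sh#2 cells, below the density at KIT in every case. No PHF19 peak was found at ERG, the nearest to its start being 851 kb away. The centre of the strongest ERG peak in sh#2 cells, which had no shCT counterpart, is shown as an example of the CG-poor peaks (chr21:39861467-39861666, GRCh37, plus strand, CG in capitals, 3 in 200 bases).
ERG, MTF2 sh#2: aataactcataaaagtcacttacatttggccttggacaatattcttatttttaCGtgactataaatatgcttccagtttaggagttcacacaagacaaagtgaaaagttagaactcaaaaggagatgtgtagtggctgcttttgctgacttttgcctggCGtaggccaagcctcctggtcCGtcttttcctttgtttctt

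**Figure D2:**
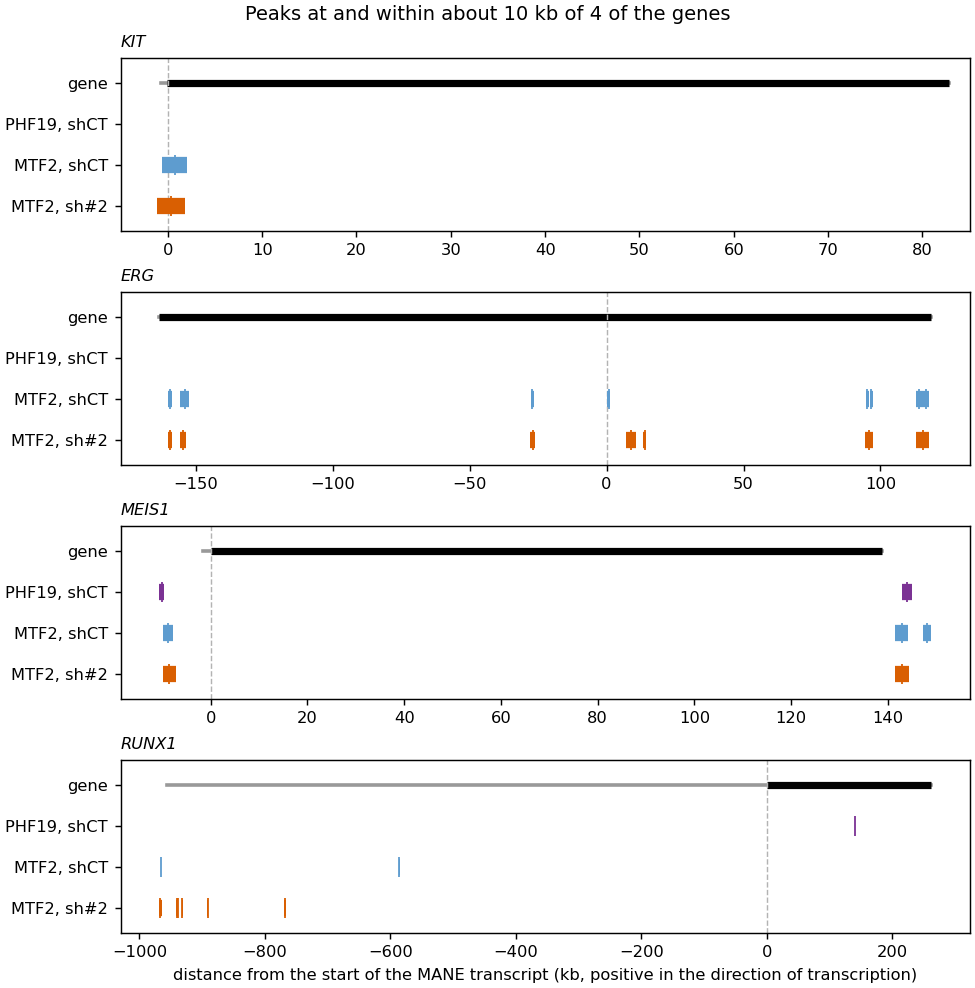
Peaks of the 3 lists at KIT, ERG, MEIS1 and RUNX1 by distance from the MANE start in kb; thick black lines span transcripts with a consensus coding sequence and thin grey lines all annotated transcripts, and a tick marks each peak's centre. KIT is marked at its start in both MTF2 lists, ERG in 8 and 7 places, MEIS1 on its flanks, and RUNX1 mostly far upstream of the coding gene.

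The single PHF19 peak of the set lay in RUNX1, at 36280558 to 36281366 on GRCh37 chromosome 21. It was 809 bp wide and scored 52.8, above 9.84% of the PHF19 list. RUNX1 is transcribed on the minus strand from a distal start at 36421599 and a proximal start at 36260987, and the peak lay in the intron between them, 140.2 kb downstream of the distal and 19.6 kb upstream of the proximal start. No MTF2 peak of either list overlapped it, whereas 47.5% of all 5621 PHF19 peaks overlapped an MTF2 peak in shCT and 57.5% one in sh#2 cells. These shares are over the list as deposited, to which the study's minimum of tags could not be applied. Its 3.71 CG per kb compare with a median of 17.4 over the PHF19 list. The central 200 bases (chr21:36280862-36281061, GRCh37, plus strand) hold 1 CG, in capitals.
RUNX1, PHF19 shCT: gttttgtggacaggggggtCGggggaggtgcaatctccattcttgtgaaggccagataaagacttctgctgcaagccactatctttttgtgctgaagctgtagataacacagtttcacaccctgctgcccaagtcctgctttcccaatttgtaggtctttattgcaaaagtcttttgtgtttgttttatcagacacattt

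The MTF2 peaks of RUNX1, 1 in shCT and 5 in sh#2 cells, lay outside the coding gene. Their centres fell 585.6 to 940.8 kb upstream of the distal start, in sequence that belongs to RUNX1 only through 4 of its 18 annotated transcripts, none with a consensus coding sequence. Limited to transcripts with one, RUNX1 had no MTF2 peak in either list. The promoter peak of RUNX1 counted in sh#2 cells was among these, lying near a noncoding start. The shCT peak scored 55.1, and the sh#2 peaks ran from 52.1 to 88.7, all below the median of their list. No shCT peak in the region overlapped one of sh#2 cells, and the share over the whole lists is not given here. Beyond the region, upstream of the farthest noncoding start, a stronger MTF2 peak of sh#2 cells (37386294 to 37389917) scored 282.4, above 80.4% of its list. It held the whole of an shCT peak of 891 bp with a score of 50.5.

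MEIS1 had no peak in its region but had peaks of all 3 lists within 10 kb of its ends. Upstream, the PHF19 peak (66651625 to 66652661 on chromosome 2) shared 333 bp with the MTF2 peak of shCT cells (66652329 to 66654392) and 297 bp with that of sh#2 cells (66652365 to 66655049). The MTF2 peaks scored 91.5 and 127.03, above 53.1% and 55.5% of their lists. The gaps to the first annotated base of MEIS1 were 7.92, 6.19 and 5.54 kb. Both MTF2 peaks overlapped MEIS1-AS3, an antisense long noncoding RNA. Downstream, an MTF2 peak of 2707 bp in shCT cells and one of 2858 bp in sh#2 cells began 2.75 and 2.74 kb after the gene, within LINC01798, another long noncoding RNA. With a score of 283.6 the former lay above 89.3% of its list, and with 259.2 the latter lay above 78.4%. A PHF19 peak there scored 50.05, near the lowest score of its list, and shared 1309 and 1446 bp with them. A further MTF2 peak downstream was found in shCT cells only, with a score of 69.9.

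The MTF2 peaks upstream of MEIS1 held 59.1 and 49.2 CG per kb and those downstream 42.1 and 40.6, all above the list medians. The central 200 bases of the upstream and downstream peaks of shCT cells are shown for comparison with the CG-poor peaks of ERG and RUNX1 (chr2:66653261-66653460 and chr2:66805006-66805205, GRCh37, plus strand, CG in capitals, 14 and 8).
MEIS1 upstream, MTF2 shCT: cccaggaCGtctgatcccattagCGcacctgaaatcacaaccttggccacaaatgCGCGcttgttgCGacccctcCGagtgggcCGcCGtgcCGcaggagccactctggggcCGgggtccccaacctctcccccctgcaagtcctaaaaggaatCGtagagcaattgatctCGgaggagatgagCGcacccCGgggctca
MEIS1 downstream, MTF2 shCT: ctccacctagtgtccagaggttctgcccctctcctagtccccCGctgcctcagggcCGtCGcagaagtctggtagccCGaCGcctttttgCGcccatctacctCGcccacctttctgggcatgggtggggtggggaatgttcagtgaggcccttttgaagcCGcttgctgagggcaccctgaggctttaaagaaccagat

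**Figure D3:**
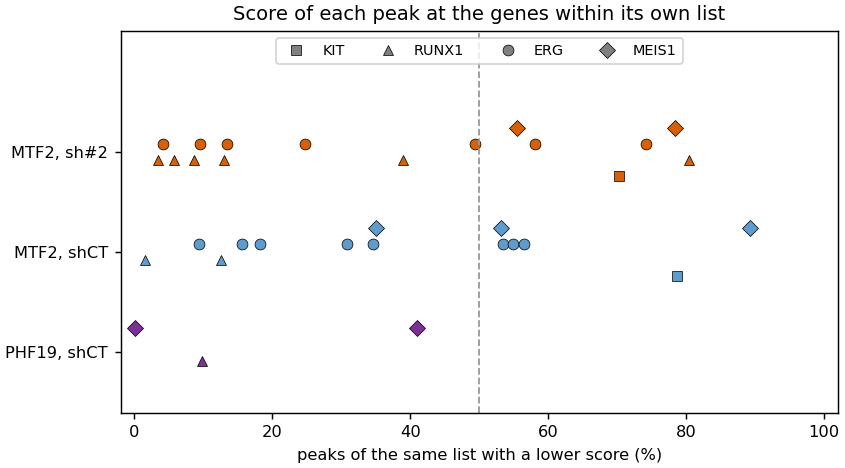
Score of each peak at or within about 10 kb of KIT, RUNX1, ERG and MEIS1, as the percentage of peaks of the same list with a lower score; the dashed line marks the middle of each list. KIT and the downstream MEIS1 peaks lie at 70.2% or higher in the MTF2 lists, with the exception of 1 MEIS1 peak of shCT cells, and the PHF19 peaks lie at 41.0% or lower.

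For MYB, GATA2, LYL1, IKZF1 and HHEX, the nearest peaks of each list lay outside their regions. The nearest PHF19 peak to a start of these 5 was 109.9 kb away at the closest, for MYB, and 748 kb away at the farthest, for GATA2. MTF2 peaks lay 121 to 1068 kb away in shCT cells, for LYL1 and HHEX, and 106 to 442 kb away in sh#2 cells, for LYL1 and GATA2. KIT and ERG, which had MTF2 peaks, lay 1390.3 and 851 kb from the nearest PHF19 peak. Distances over all genes are not given here, so those of the 5 genes are not read as particular to them. A list gives peaks past the caller's threshold only, so weaker binding at these genes could not be seen.

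These 5 genes had mean normalized counts from 2523 to 5124, while the 4 others had from 1.15 to 911. Over all placed genes with a mean of at least 1000, 5.78% had a PHF19 peak within 2.5 kb of a start, 2.07% an MTF2 peak in shCT and 3.03% one in sh#2 cells. KIT, RUNX1 and MEIS1 fall in the class from 100 to below 1000, where the shares were 7.71%, 7.10% and 10.1%. ERG falls in the class below 10, where they were 7.47%, 16.2% and 22.96%. Among the CpG-rich promoters of the class that holds KIT, 8.99% had an MTF2 peak in shCT cells, against 2.21% in the class that holds MYB, IKZF1, GATA2 and HHEX. A promoter without a peak was the common case in every class of level and list, and the shares with an MTF2 peak were lowest in the class of these 5 genes.

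**Figure D4:**
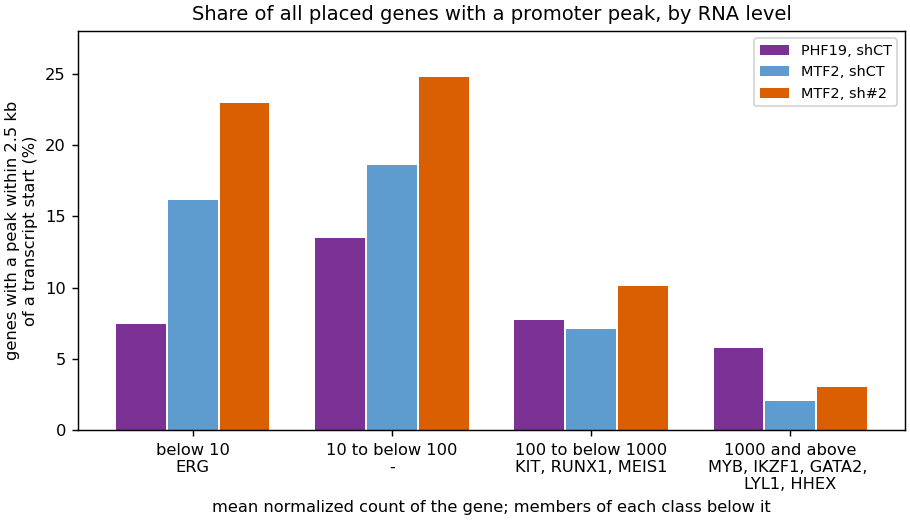
Percentage of all placed genes with a peak within 2.5 kb of a transcript start, in 4 classes of the authors' mean normalized count, for the 3 lists; the genes of the set in each class are named below it. MTF2 shares are 16.2% and 22.96% in the class of ERG and 2.07% and 3.03% in the class of MYB, IKZF1, GATA2, LYL1 and HHEX.

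Under PHF19 depletion by sh#2, the width under MTF2 peaks in the regions of the set was 29395 bp, against 17077 bp in shCT cells, a ratio of 1.72. The whole lists differed in the same direction, by 2.18 in covered bases and 1.46 in the number of peaks, and the 3027 genes with a peak in both had a median ratio of 1.80 (quartiles 1.28 and 2.85). KIT had a ratio of 1.16, which exceeds that of 17.9% of these genes, and ERG had 1.30, which exceeds that of 25.9%. RUNX1 had 8.58, from the noncoding stretch upstream. Limited to transcripts with a consensus coding sequence, the ratio was 1.28. Limited to the same number of strongest peaks in both lists, the ratio was 0.983, and within 2.5 kb of a start it was 0.880. Near starts the width fell at ERG alone, from 1486 to 387 bp. It rose at KIT from 2584 to 2985 bp and at RUNX1 from 0 to 211 bp. Ratios over all genes at these settings are not given here. The direction of the difference at the set thus depended on which peaks were counted, and depth of the libraries, which the lists do not give, cannot be told apart from the condition.

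**Figure D5:**
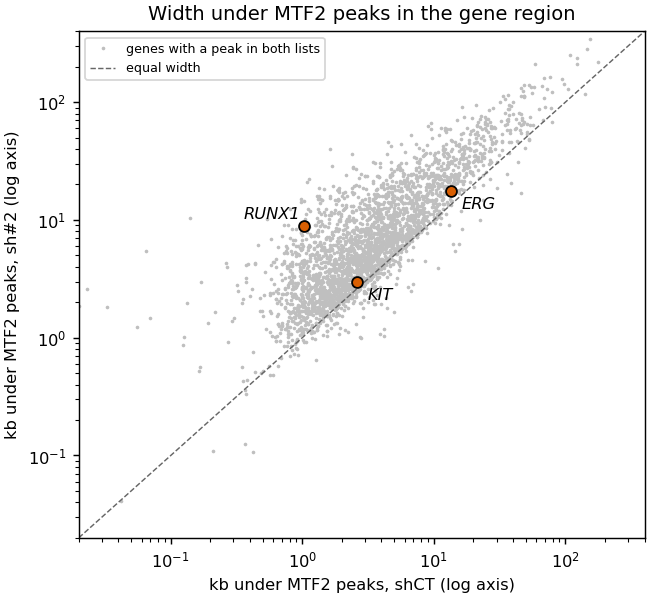
Width in kb under MTF2 peaks in the region of each gene, shCT against sh#2 cells (log axes), for the 3027 genes with a peak in both lists (grey); the dashed line marks equal width. KIT (2584 and 2985 bp) and ERG (13454 and 17497 bp) lie near the line, and RUNX1 (1039 and 8913 bp) lies far above it.

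A further 15 regulators of blood progenitors and myeloid cells, listed beside the set, were counted in the same way. PHF19 peaks lay in the regions of 2 of the 15 (10.2% of all placed genes). MTF2 peaks lay in 5 in shCT cells (13.5%) and in 5 in sh#2 cells (18.1%). The MTF2 counts were not of the same genes, since GFI1 had a peak in shCT cells only and FLI1 in sh#2 cells only. Of the 4557 placed genes with an MTF2 peak in either list, 221 had one in shCT cells alone and 1309 in sh#2 cells alone. No peak of any list lay at 9 of the 15, among them TAL1, LMO2 and LDB1. The share of all genes without a peak in any list is not given here. Mean normalized counts ran from 20.96 to 6552 in these 9 and from 0 to 569 in the 6 with a peak, so the ranges overlapped. The genes with a PHF19 peak were MECOM, which encodes the zinc finger factor EVI1, and PRDM16, a related factor. At MECOM the PHF19 peak covered the MANE start, with a score of 209.3. MTF2 peaks lay there in shCT cells too, 3 of them within 2.5 kb of a transcript start. The nearest, with a score of 78.4, lay 0.105 kb upstream of the MANE start. The highest MTF2 score in the MECOM region in shCT cells was 251. In sh#2 cells an MTF2 peak with a score of 1241 covered that start, and scores were not compared between lists. At PRDM16, with a mean normalized count of 0.581, the PHF19 peak lay 364.5 kb downstream of the MANE start. It scored 62.2, below the PHF19 list's median of 72.3. MTF2 peaks covered 47.5% of the PRDM16 region in shCT and 58.8% in sh#2 cells.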

How the data were processed

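RNA-seq (6 libraries) and ChIP-seq (6 libraries, of which 3 peak lists were analysed; PHF19 in sh#1 and sh#2 cells and IgG were not analysed here) were grouped by their titles. The authors mapped RNA reads to hg19 with TopHat, kept uniquely mapped reads, counted them on RefSeq exons and deposited a DESeq2 table. Only the authors' mean of normalized counts was used, which pools the 6 libraries and is treated as a score. Its other columns hold the authors' comparison of both shRNAs with shCT (log2 fold changes, standard errors, statistics, p-values) and were not used. The table holds no values per library, so the planned fit of expression was not made, and depth and replicate error are unknown.

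The authors mapped ChIP reads to hg19 and dm3 with Bowtie and called peaks with MACS (versions not given in the sources used here). The deposited lists hold positions and a score, without tags, so the authors' minimum of tags for PHF19 peaks could not be applied. In its heading, the PHF19 list carries a hairpin name, sh4, beside the shCT sample, while the MTF2 lists carry IgG, so the control behind the PHF19 peaks is not certain. The heading of the sh#2 list also reads sh4; its label was kept.

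Genes were placed with GENCODE 44 on GRCh37, the assembly of hg19: 23972 of 27348 symbols matched, 1003 of them through synonyms of RefSeq. Overlap needed at least 1 bp. Analyses used Python 3.11.15, numpy 2.4.6 and matplotlib 3.10.9, and the overlap step was tested on simulated data, in which 2000 of 2000 placements were right. Sequences were read from GRCh37. All 9 members and the 15 further regulators are named or counted, and the latter are named where they had a PHF19 peak. The members and lists were chosen with earlier results of these data known. Alternatives were other regions, transcripts, overlaps, peak sets, lengths and a minimum mean normalized count of 10.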

Additional observations from a re-analysis of the deposited data

How the results depend on the processing

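The number of the 9 genes with a PHF19 peak was 1 and rested on the weak RUNX1 peak: it was 0 within 2.5 kb of a start, 0 with peaks at or above the median score, 0 with the longest transcript of each gene, and 2 with 10 kb upstream, which added MEIS1. The numbers for MTF2 stayed between 2 and 4 in shCT and in sh#2 cells under the same alternatives, an overlap of 200 bp and transcripts with a consensus coding sequence, an alternative chosen after seeing the data. KIT and ERG had an MTF2 peak in both lists under each of these alternatives.

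The ratio of the width under MTF2 peaks, sh#2 over shCT, was 1.72. With the same number of strongest peaks it turned to 0.983. At promoters only it turned to 0.880, through ERG alone. It was 1.34 with peaks at or above the median score and 1.28 with transcripts that have a consensus coding sequence. The cause was not tested beyond the choice of peaks and transcripts. Among genes whose mean normalized count reached 10, the shares with a peak were 10.1% for PHF19, 9.06% for MTF2 in shCT and 12.0% for MTF2 in sh#2 cells. By level, 5 of the 9 genes lay in the upper part of these genes, also per kb of the longest transcript, and 8 lay there when all placed genes were ranked. No paired analysis was possible because the expression table holds 1 mean over all libraries and each ChIP condition has 1 library, and no library could be left out. Depth is unknown for every value.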

Other observations

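FLI1, an ETS factor closely related to ERG and a partner of GATA2, RUNX1, LYL1 and ERG at enhancers, was looked at after its values were seen. It had a mean normalized count of 0.644, no MTF2 peak in its region in shCT cells, and 3 in sh#2 cells, which covered 11438 bp and reached a score of 465.8. The nearest MTF2 peak to its start in shCT cells was 209.9 kb away. HOXA9, a homeobox partner of MEIS1 listed at 0, had 2429 bp under MTF2 peaks in shCT and 13235 bp in sh#2 cells, also chosen after its values were seen. Over the 3027 genes with a peak in both lists, the median ratio of covered bases, sh#2 over shCT, was 1.80 (quartiles 1.28 and 2.85). GFI1, a zinc finger repressor of the same list, differed in the other direction, with 1 MTF2 peak of 1432 bp and a score of 114.8 in shCT cells and none in sh#2 cells. Peaks in 1 condition alone were not particular to FLI1 and GFI1. Of 4557 placed genes with an MTF2 peak in either list, 1309 had one in sh#2 cells alone and 221 in shCT cells alone. Each of these observations rests on 1 library for each condition.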
